A study of Mus musculus with 2 samples.

Results

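Oxt, which encodes the oxytocin precursor, and Avp, which encodes the vasopressin precursor, were followed through every nucleus of a single-nucleus RNA sequencing study of the paraventricular nucleus of the hypothalamus (PVH) in mice. They are 2 of the 31053 gene rows, and they were picked by name, not by their values. The nuclei came from mice aged 4 weeks and carried a green fluorescent nuclear membrane protein (Sun1-GFP) switched on by Cre recombinase from the Sim1 gene, a gene of PVH neurons, and GFP-positive nuclei were sorted. The animals were 6 Sim1-Cre;Sun1-GFP;OtpQ153R/+ mice with 1 altered Otp allele, 4 Sim1-Cre;Sun-GFP;Otpfl/+ mice with 1 floxed Otp allele, and 7 Sim1-Cre;Sun1-GFP mice without an Otp alteration. Otp is a homeobox factor of neuroendocrine neurons. Because Cre follows Sim1, a floxed allele is open to recombination only in cells that have had Sim1, while the Q153R allele is named in the genotype without a Cre-dependent element. All 17 mice share 1 gene-expression library, and oligonucleotide tags read as 3 hashtag rows named Q153R, KD and Ctrl mark the pools. No label spells out KD, which is matched to the floxed genotype only by elimination. No label separates the mice of a pool, so every interval here is a 95% interval for counting error alone, and differences between pools have no replicates behind them.

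Oxytocin and vasopressin are short peptides that are cut from larger precursors together with their neurophysins, the carrier proteins they are stored with. Magnocellular neurons of the PVH and the supraoptic nucleus send them to the posterior pituitary for release into the blood, where oxytocin acts on milk ejection and labour and vasopressin on water retention. Smaller parvocellular neurons send oxytocin within the brain, and some corticotropin-releasing hormone (Crh) neurons also make vasopressin. Both transcripts are so abundant in their own neurons that single-nucleus libraries can hold them in other droplets as free RNA.

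The genes lie side by side on mouse chromosome 2 in opposite directions (GRCm38). Oxt runs on the plus strand from 130576173 to 130577054, and Avp on the minus strand from 130580620 to 130582554. Each has 3 exons, and 3565 bases separate their 3′ ends. The 250 bases before each RefSeq start are shown because the neighbouring genes were high in different nuclei. They are RefSeq windows (GRCm38.p6), chr2:130575919-130576168 on the plus strand for Oxt and chr2:130582589-130582838 on the minus strand for Avp, and both are written 5′ to 3′ on the strand of the gene. The RefSeq start is the base that follows each window. It lies upstream of the start given above for both genes, and motif positions are counted from it.
Oxt promoter: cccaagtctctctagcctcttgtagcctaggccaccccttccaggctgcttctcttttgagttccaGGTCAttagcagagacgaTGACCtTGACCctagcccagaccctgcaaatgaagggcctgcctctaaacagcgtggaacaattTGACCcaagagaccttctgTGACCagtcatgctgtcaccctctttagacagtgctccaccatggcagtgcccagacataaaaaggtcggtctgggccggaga
Avp promoter: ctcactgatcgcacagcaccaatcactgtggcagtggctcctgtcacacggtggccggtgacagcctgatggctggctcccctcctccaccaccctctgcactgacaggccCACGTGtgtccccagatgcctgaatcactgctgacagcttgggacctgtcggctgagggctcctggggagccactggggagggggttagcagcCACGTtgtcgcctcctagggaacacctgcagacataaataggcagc
In the Oxt window, capitals mark TGACC or its reverse complement GGTCA, the core bound by several nuclear receptors. It occurs 5 times there and 0 times in the Avp window, and 34.9% of 27025 promoter windows of the same length hold it at least 1 time. In the Avp window, capitals mark ACGTG or its reverse complement CACGT, the core bound by bHLH-PAS dimers, the family of SIM1 and ARNT2. It matches at 3 positions there, with the pair at 139 and 138 bases before the start overlapping, and at 0 in the Oxt window, while 16.6% of all windows hold it. TAAT or ATTA, the homeodomain core, occurs 1 time in the Oxt window and 0 times in the Avp window, and 55.3% of windows hold it. The matches describe the letters of these windows and were not tested as binding sites. The longest stretch the windows share on the same strand is 10 bases.

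The library holds 6173 barcodes with 508 to 61801 UMIs each (unique molecular identifiers, each standing for 1 captured RNA molecule) and a median of 5681. A floor of 500 genes and a ceiling of 5% mitochondrial UMIs left 6157 barcodes, of which 4904 carried exactly 1 hashtag at or above its threshold (37 counts for Q153R, 61 for KD and 105 for Ctrl), 777 carried 2, 347 carried 3 and 129 carried none. After 583 barcodes near the several-tag barcodes had been left out, 4326 nuclei remained, of which 1442 were labelled Q153R, 1140 KD and 1744 Ctrl. The median depth was 4428 UMIs in nuclei labelled Q153R, 5509 in KD and 5072.5 in Ctrl. Clustering without Oxt, Avp and the listed genes gave 25 clusters. Of these, 21 expressed Sim1 and held 3706 nuclei, 1 was GABAergic-like with 482 nuclei, and 3 were glial with 138 nuclei (77 astrocyte-like, 32 oligodendrocyte precursor-like and 29 oligodendrocyte-like). The GABAergic-like cluster held all 8 GABAergic markers at a sum of 636 CPM (the UMIs of a gene as a proportion of all UMIs, scaled to 1000000), against 43.2 CPM in the Sim1-expressing clusters, and Sim1 at 16.6 CPM. Otp, the altered gene, stood at 126 CPM in Q153R, 91.9 CPM in KD and 59.2 CPM in Ctrl nuclei of the Sim1-expressing clusters. This order goes against KD read as fewer Otp transcripts, and UMIs at the 3′ end need not come from the altered part of the gene, so Otp does not check the labels.

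Most nuclei held few UMIs of either gene, and a small set held many. Over the 4326 kept nuclei, Oxt had 11952 UMIs and Avp 16661. The median was 1 UMI for both genes. The 95th percentile was 3 UMIs for Oxt and 8 for Avp, the 99th was 79.0 and 90.8, and the highest nucleus held 188 Oxt UMIs and another 217 Avp UMIs. At least 1 UMI was present in 50.1% of nuclei for Oxt and in 50.6% for Avp, at least 5 in 3.91% and 6.29%, and at least 50 in 1.99% and 2.96%. A nucleus was called rich in a gene with at least 5 UMIs and at least 2000 CPM of it. By this rule 139 nuclei were Oxt-rich (3.21%, 2.71–3.78) and 218 were Avp-rich (5.04%, 4.41–5.73). Rich nuclei held 73.9% of all Oxt UMIs and 80.7% of all Avp UMIs.

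The threshold fell at the lower edge of a thinly filled step, from 2000 to 5000 CPM, with more nuclei in the step just below it. By level, 110 nuclei lay between 1000 and 2000 CPM of Oxt, 39 between 2000 and 5000, 52 between 5000 and 10000, 47 between 10000 and 20000 and 12 above. For Avp the same steps held 113, 43, 62, 76 and 40 nuclei. The nearest nuclei inside the threshold had 2014, 2029 and 2198 CPM of Oxt and 2032, 2035 and 2052 CPM of Avp, and the nearest outside it had 1910, 1890 and 1857 CPM of Oxt and 1977, 1820 and 1806 CPM of Avp. A further 30 nuclei for Oxt and 54 for Avp had 5 UMIs but not the level, and 11 and 3 had the level but not the UMIs.

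**Figure D1:**
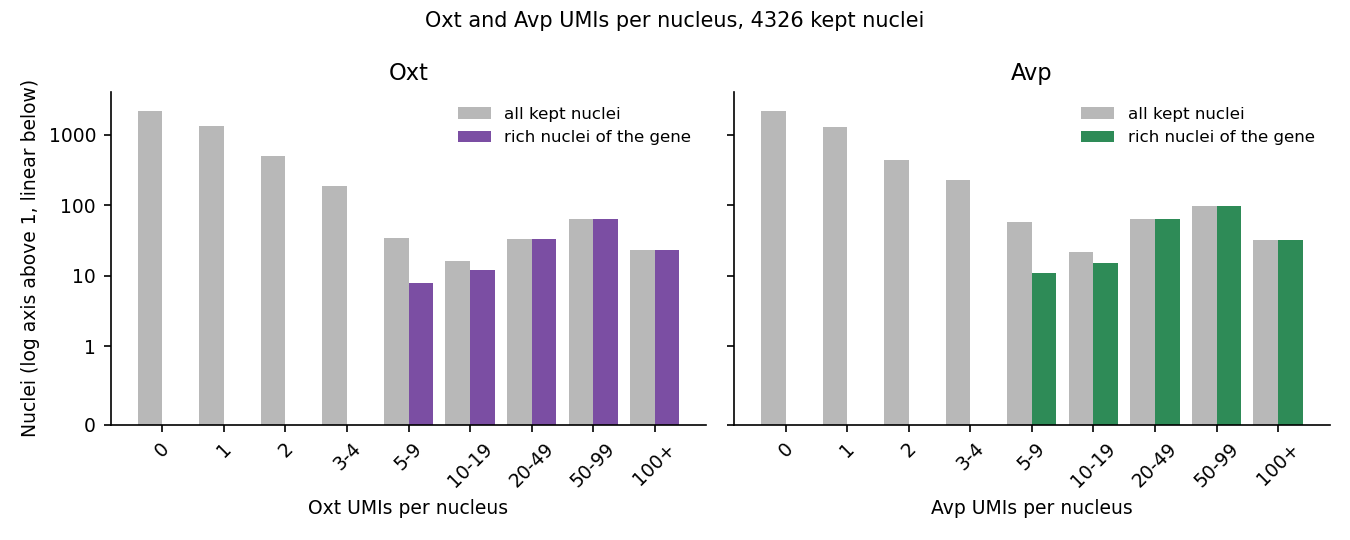
Number of kept nuclei (y, log above 1) by UMIs of Oxt (left) and Avp (right) per nucleus, with all 4326 nuclei in grey and the rich nuclei of the gene in colour. The counts fall steeply with the number of UMIs and then form a second group of nuclei, which the 139 Oxt-rich and 218 Avp-rich nuclei make up.

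Each gene was high in 1 cluster and lower in a second one. Cluster 17 (96 nuclei, with Mdfic and Adamts12 among its leading genes) held 9499 CPM of Oxt (9262–9741), and 87 of its nuclei were Oxt-rich. Cluster 14 (122 nuclei, led by Esr2, which encodes oestrogen receptor beta, and Foxp2) held 3122 CPM (3007–3241) with 42 Oxt-rich nuclei, which is 34.4% of it (26.1–43.6). Of all Oxt-rich nuclei, 62.6% were in cluster 17 and 30.2% in cluster 14. The other clusters lay between 103 and 352 CPM of Oxt. For Avp, cluster 9 (197 nuclei, with Plekhg1 and Ebf3 among its leading genes) held 12071 CPM (11866–12280), and 195 of its nuclei were Avp-rich. Cluster 0 (501 nuclei, led by Crh, the corticotropin-releasing hormone of the stress axis) held 394 CPM (368–423) with 15 Avp-rich nuclei. The other clusters held 105 to 295 CPM of Avp, and for both genes the highest of these were the shallow oligodendrocyte-like and astrocyte-like clusters.

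Nuclei below the rich threshold showed where lower levels lay. In 17 Sim1-expressing clusters with at most 5 rich nuclei, such nuclei averaged 0.702 Oxt UMIs and 0.683 Avp UMIs each. Cluster 14 stood above this with 1.94 Oxt UMIs per nucleus (1.64–2.27) over 80 nuclei, of which 28 held none, 23 held 1, 11 held 2 and 18 held 3 or more. Cluster 0 stood above it for Avp with 1.28 UMIs per nucleus (1.18–1.38) over 486 nuclei, of which 220 held none and 83 held 3 or more. Its Oxt was 0.689 UMIs per nucleus, within the range of the other clusters. In cluster 17 the 8 nuclei below the threshold averaged 4.00 Oxt UMIs (2.74–5.65), with 16 of their 32 UMIs in 1 nucleus.

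The background was read in GABAergic-like and glial nuclei, outside the Sim1-expressing clusters. GABAergic-like nuclei that were not rich (476 nuclei, median 5044 UMIs) averaged 0.691 Oxt UMIs (0.619–0.770) and 0.592 Avp UMIs (0.525–0.666), or 137 and 118 CPM. With the 6 rich nuclei of this cluster kept in, the levels were 142 and 133 CPM. Without the rich nuclei, an Oxt UMI was present in 48.3% of GABAergic-like nuclei and an Avp UMI in 42.4%. Sim1-expressing nuclei that were not rich (3358 nuclei, median 4973 UMIs) held an Oxt UMI in 48.1% and an Avp UMI in 48.4%. The share with an Oxt UMI is thus at the background and is not read as expression. For Avp, the 17 Sim1-expressing clusters with few rich nuclei held a UMI in 46.8%, above the GABAergic-like share by a margin that the counting intervals do not separate. Glial nuclei (138 nuclei, median 2079 UMIs) averaged 0.703 Oxt UMIs (0.570–0.857) and 0.572 Avp UMIs (0.453–0.713), or 292 and 237 CPM. Per nucleus the glial and GABAergic-like classes overlapped in both genes, while in CPM the shallower glia stood higher.

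In GABAergic-like nuclei the number of background UMIs hardly moved with the depth of the nucleus, so the level in CPM was lower at greater depth. Among GABAergic-like nuclei that were not rich, the depth quartiles had medians of 2055, 4353, 5664 and 7574 UMIs. Their Oxt UMIs per nucleus were 0.630, 0.773, 0.655 and 0.706, and their Oxt levels 296, 179, 115 and 88.0 CPM. Their Avp UMIs per nucleus were 0.529, 0.571, 0.571 and 0.697, and their Avp levels 248, 132, 101 and 86.9 CPM. In the 17 Sim1-expressing clusters with few rich nuclei the Oxt UMIs per nucleus were 0.665, 0.643, 0.745 and 0.756 and the levels 256, 143, 125 and 86.4 CPM. The glial quartiles, of 34 or 35 nuclei each, had wider intervals. Their Oxt UMIs per nucleus were 0.514, 0.676, 0.618 and 1 (0.697–1.39 in the deepest), and their Oxt levels 419, 389, 244 and 242 CPM. Their Avp UMIs per nucleus were 0.571, 0.618, 0.588 and 0.514, and their Avp levels 466, 355, 232 and 125 CPM. Thinned to 2000 UMIs, an Oxt UMI would be in 24.0% of GABAergic-like, 35.5% of glial and 24.1% of Sim1-expressing nuclei that were not rich. Thinning left out nuclei under that depth and kept 418 of 476 GABAergic-like, 72 of 138 glial and 3127 of 3358 Sim1-expressing nuclei. Glia stayed highest, as they did in CPM.

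**Figure D2:**
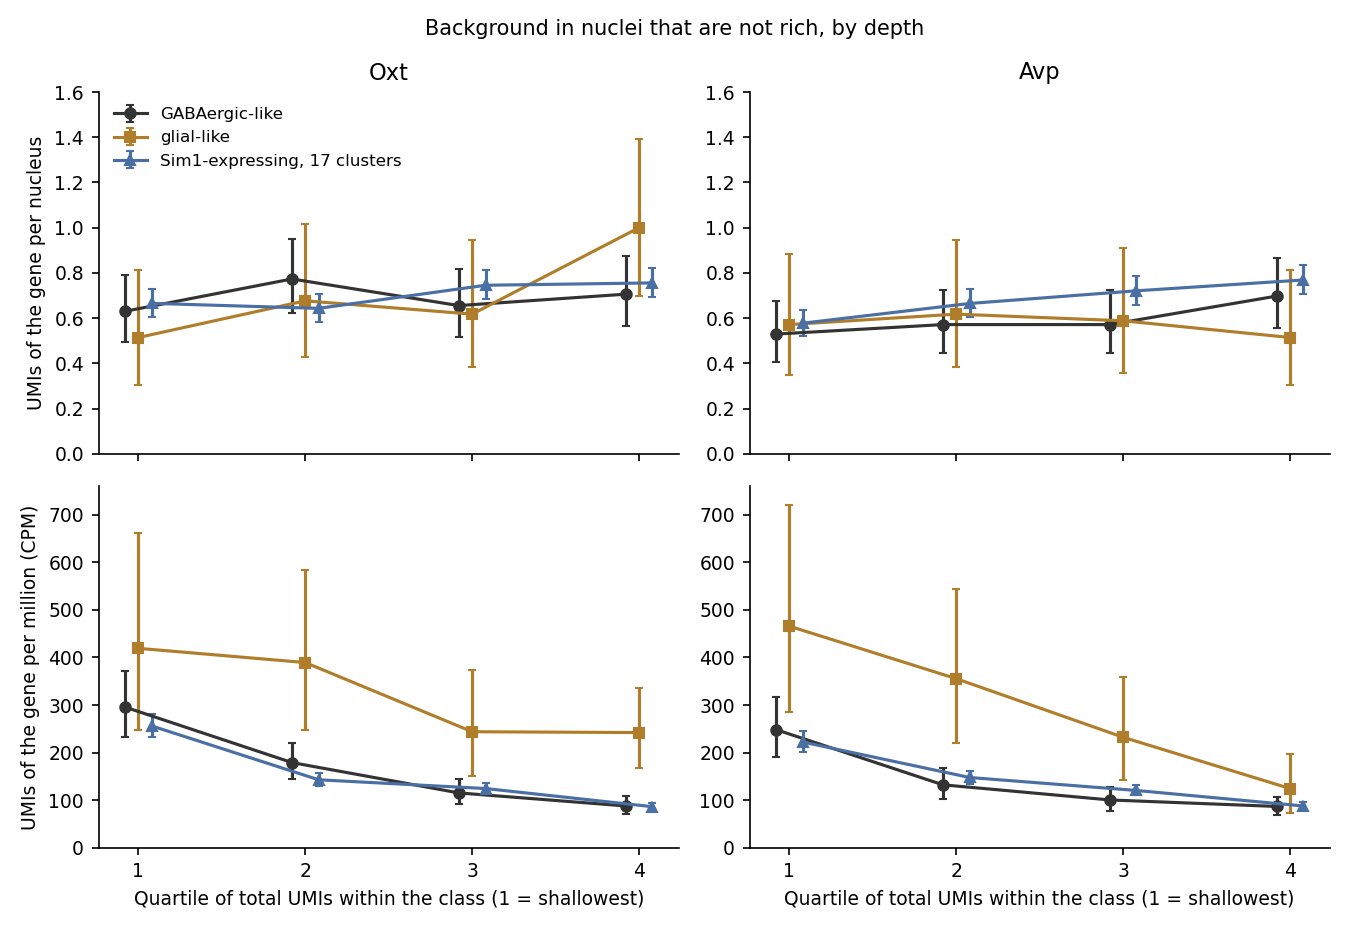
Oxt (left) and Avp (right) in nuclei that were not rich, by quartile of total UMIs within each class, as UMIs per nucleus (top) and CPM (bottom), with exact Poisson 95% intervals. GABAergic-like nuclei stay at 0.630 to 0.773 Oxt UMIs per nucleus while their level falls in steps to 88.0 CPM in the deepest quartile, with 296 CPM in the shallowest.

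Background counts were close to those of a Poisson draw for Oxt and more spread for Avp. The Poisson intervals of background Avp are thus somewhat too narrow. In GABAergic-like nuclei that were not rich, the variance over the mean was 1.09 for Oxt and 1.26 for Avp, against 21.6 for Oxt in Oxt-rich nuclei and 25.9 for Avp in Avp-rich nuclei. The ratio of Oxt to Avp UMIs was 1.17 (0.992–1.37) in GABAergic-like and 1.23 (0.903–1.67) in glial nuclei. In the 17 Sim1-expressing clusters with few rich nuclei it was 1.03 (0.965–1.10). The glial values moved most with the choices made. With the neighbours of several-tag barcodes kept, glial nuclei held 1.48 Oxt UMIs each and an Oxt to Avp ratio of 2.61 (2.04–3.35), and with classes drawn from markers in each nucleus they held 478 CPM of Avp, 1.08 Avp UMIs each and a ratio of 0.683 (0.510–0.912).

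The background did not separate the pools. GABAergic-like nuclei that were not rich held 0.743 Oxt UMIs each in Q153R (0.560–0.967, 74 nuclei), 0.667 in KD (0.522–0.840, 108 nuclei) and 0.687 in Ctrl (0.596–0.789, 294 nuclei). For Avp the values were 0.689 in Q153R (0.513–0.906), 0.556 in KD (0.424–0.715) and 0.582 in Ctrl (0.498–0.676). All these intervals overlap.

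The GABAergic-like cluster held 6 rich nuclei, each with 0 Sim1 and 0 Otp UMIs. The 2 Oxt-rich ones had 5 Oxt UMIs each at 1250 and 905 total UMIs. The 4 Avp-rich ones had 13, 10, 8 and 6 Avp UMIs. Those with 13 and 10 also held 13 and 17 UMIs of the 8 suprachiasmatic markers, and the others held 0 or 1. In the GABAergic-like cluster 1 gene supplied 218 of the 248 CPM of that list, and Vip was at 0. Astrocyte-like nuclei reached 1210 CPM of the list with 1 gene alone. The sum therefore does not mark suprachiasmatic neurons. The nucleus with 13 Avp UMIs held 0 UMIs of Gad1, Gad2 and Slc32a1, and the one with 10 held 1 UMI of Gad1 and 0 of the others.

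Nuclei rich in both genes were rare among nuclei with 1 hashtag. Of the 354 rich kept nuclei, 3 were rich in both (0.847%, 0.175–2.46). Of the 209 rich barcodes with several hashtags, which join nuclei of different pools, 11 were rich in both (5.26%, 2.66–9.22), and of the 90 with 3 hashtags 7 were (7.78%, 3.18–15.4). At a threshold of 5000 CPM the shares were 0.917% (0.0232–5.01) with several hashtags and 0.347% (0.00879–1.92) with 1, and the intervals overlapped. One nucleus labelled KD in cluster 9 held 44 Oxt and 48 Avp UMIs of 8035. A Ctrl nucleus in cluster 14 held 11 and 6 of 2215, and another Ctrl nucleus in cluster 9 held 7 and 42 of 1625. Of the 50 nearest neighbours of each, 10%, 8% and 4% carried several hashtags, in the order given. Over all barcodes that passed the filter 18.3% did, and nuclei with the highest neighbour shares, from 22%, had been left out. Among the several-tag barcodes rich in both genes the share ran from 12% to 100%. A low share thus does not tell a single nucleus from a doublet. Doublets of 2 nuclei from the same pool carry 1 hashtag, and their part in these 3 was not tested. In the rich kept nuclei, Oxt made up over 90% of the Oxt and Avp UMIs in 125, under 10% in 208 and a share between these in 21.

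**Figure D3:**
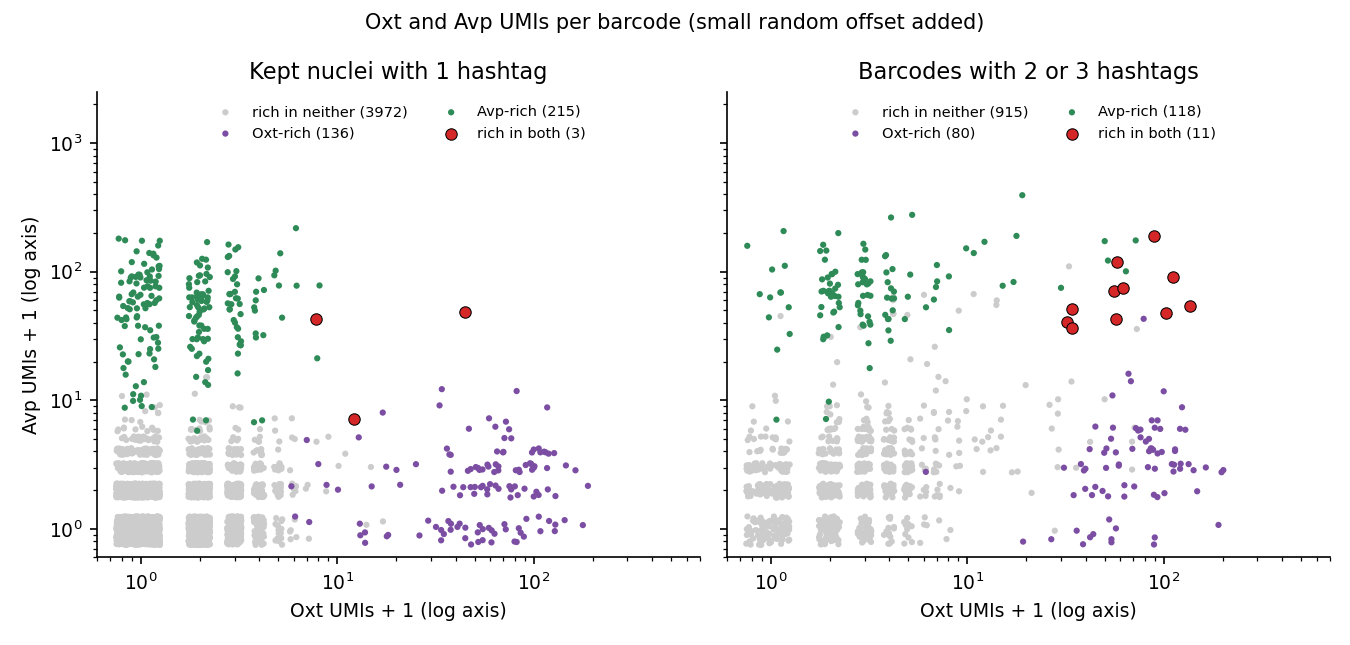
Oxt UMIs (x) and Avp UMIs (y) per barcode, each plus 1 on log axes, for kept nuclei with 1 hashtag (left) and barcodes with 2 or 3 hashtags (right). Rich nuclei with 1 hashtag lie along the axes with 3 rich in both, while 11 several-tag barcodes are rich in both.

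Barcodes with more hashtags also held more Oxt and Avp without being rich. Barcodes with 3 hashtags that were not rich averaged 5.0 Oxt and 5.83 Avp UMIs, those with 2 averaged 1.71 and 1.69, and those with 1 averaged 0.768 and 0.783. The median depth of these barcodes was 17076 UMIs with 3 hashtags, 9415.5 with 2 and 5198 with 1. Barcodes with no hashtag averaged 0.608 Oxt and 0.528 Avp UMIs at a median of 1674. The last value is close to that of glial nuclei, which are about as shallow.

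Nuclei rich in one gene held more UMIs of the other gene than GABAergic-like nuclei did, except in cluster 0. Oxt-rich nuclei averaged 1.63 Avp UMIs (1.42–1.86) at a median depth of 6598 UMIs, against 0.697 (0.556–0.865) in the deepest quartile of GABAergic-like nuclei. The value differed between the leading clusters. Oxt-rich nuclei of cluster 14 averaged 2.68 Avp UMIs (2.21–3.23, 41 nuclei), with 16 of them holding 3 or more and the highest 11. Those of cluster 17 averaged 1.13 (0.914–1.37, 87 nuclei), with 9 holding 3 or more and the highest 4. The median depth was 6401 UMIs in the first and 6671 in the second. Avp-rich nuclei averaged 0.981 Oxt UMIs (0.853–1.12) at a median of 5112 UMIs, against 0.691 (0.619–0.770) in GABAergic-like nuclei at 5044. Those of cluster 9 averaged 0.974 (0.840–1.12, 193 nuclei), and those of cluster 0 averaged 0.667 (0.320–1.23, 15 nuclei), which is at the background. Some other Sim1-expressing clusters came close to these values in nuclei below the rich threshold. Cluster 15 averaged 0.885 Avp UMIs (0.720–1.08) and cluster 13 averaged 0.845 Oxt UMIs (0.709–0.999). These intervals overlap those of the rich nuclei of clusters 17 and 9, while the Avp value of Oxt-rich nuclei in cluster 14 lies above. Nuclei that were not rich also held Avp above the GABAergic-like background in the leading Oxt clusters, with 1.19 UMIs (0.961–1.45, 80 nuclei) in cluster 14 and 2.13 (1.24–3.40, 8 nuclei) in cluster 17, so the higher counts were not particular to rich nuclei. With the threshold at 1000 CPM the Avp value in Oxt-rich nuclei was 1.34 (1.15–1.54).

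The hashtag labels allow the number of Oxt-rich and Avp-rich nuclei, and the level in them, to be set side by side for the Otp genotypes. Oxt-rich nuclei made up 3.65% (2.71–4.80) of Sim1-cluster nuclei in Q153R, 3.13% (2.14–4.42) in KD and 4.15% (3.16–5.34) in Ctrl. The odds ratios were 0.875 (0.580–1.32) for Q153R and 0.748 (0.463–1.19) for KD against Ctrl. Both counting intervals include 1, and with 1 pool per label a difference between genotypes could not be tested. Avp-rich nuclei made up 5.51% (4.35–6.87) in Q153R, 6.98% (5.47–8.75) in KD and 5.17% (4.06–6.47) in Ctrl. Their odds ratios were 1.07 (0.755–1.52) for Q153R and 1.38 (0.963–1.97) for KD. In a sorted pool, fewer nuclei of a kind and less RNA per nucleus both lower a summed level, and here the share and the level per nucleus are given apart.

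Oxt in Oxt-rich nuclei was lower in Q153R than in either other pool. Over 50 Oxt-rich nuclei in Q153R, 31 in KD and 58 in Ctrl, Q153R nuclei held 5 to 143 Oxt UMIs with a median of 44, KD nuclei 9 to 188 with a median of 75, and Ctrl nuclei 5 to 177 with a median of 72.5. The median total depth of these nuclei was 5660.5 UMIs in Q153R, 6863 in KD and 7219 in Ctrl, so Q153R was also the shallowest. The summed levels were 8025 CPM in Q153R, 10692 CPM in KD and 10237 CPM in Ctrl. The ratio of Q153R to Ctrl was 0.784 (0.744–0.825) and that of KD to Ctrl 1.04 (0.993–1.10). Per nucleus, the middle range from the lower to the upper quartile was 5230 to 10479 CPM in Q153R, 6328 to 13314 CPM in KD and 6280 to 12436 CPM in Ctrl, so the pools overlap widely. The intervals of the ratios treat the UMIs of a nucleus as independent and are too narrow, since the variance over the mean was 14 to 21.7 in these pools.

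The same order appeared in cluster 17, where nuclei were chosen without their Oxt but were largely the same ones. Of its nuclei, 35 of 38 in Q153R, 18 of 19 in KD and 34 of 39 in Ctrl were Oxt-rich. The order is thus not a separate reading. The Oxt level of cluster 17 was 7871 CPM in Q153R, 11072 CPM in KD and 9867 CPM in Ctrl. The ratios to Ctrl were 0.798 (0.750–0.848) for Q153R and 1.12 (1.06–1.19) for KD. The KD interval took in 1 with the neighbours of several-tag barcodes kept (1.03, 0.973–1.09) and under stricter hashtag calls (1.05, 0.982–1.12). In cluster 14 the levels were 2493 CPM in Q153R, 2755 CPM in KD and 3814 CPM in Ctrl, with ratios to Ctrl of 0.654 (0.595–0.717) for Q153R and 0.722 (0.658–0.792) for KD. There, 12 of 39 Q153R, 11 of 34 KD and 19 of 49 Ctrl nuclei were Oxt-rich, and the median nucleus held 454 CPM in Q153R, 181 CPM in KD and 487 CPM in Ctrl. Over all Sim1-expressing clusters Oxt stood at 503 CPM in Q153R, 517 CPM in KD and 691 CPM in Ctrl.

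Avp was also lowest in Q153R. Over 75 Avp-rich nuclei in Q153R, 70 in KD and 73 in Ctrl, Q153R nuclei held 5 to 154 Avp UMIs with a median of 41, KD nuclei 6 to 217 with a median of 61.5, and Ctrl nuclei 6 to 180 with a median of 63. Their summed levels were 10539 CPM in Q153R, 12002 CPM in KD and 11914 CPM in Ctrl, with ratios to Ctrl of 0.885 (0.847–0.924) for Q153R and 1.01 (0.968–1.05) for KD. In cluster 9 the ratios were 0.847 (0.811–0.885) for Q153R and 0.984 (0.945–1.02) for KD. Quartiles per nucleus ran from 6361 to 15430 CPM in Q153R, 6004 to 17489 CPM in KD and 7067 to 18926 CPM in Ctrl. The median depth was 4486 UMIs in Q153R, 5328.5 in KD and 5779 in Ctrl. The part of depth in the Oxt and Avp ratios was not tested. In cluster 0, Avp stood at 347 CPM in Q153R, 444 CPM in KD and 397 CPM in Ctrl, and both ratios to Ctrl included 1. Over all Sim1-expressing clusters Avp stood at 707 CPM in Q153R, 962 CPM (937–988) in KD and 799 CPM (779–819) in Ctrl. KD was thus above Ctrl in this summed level.

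**Figure D4:**
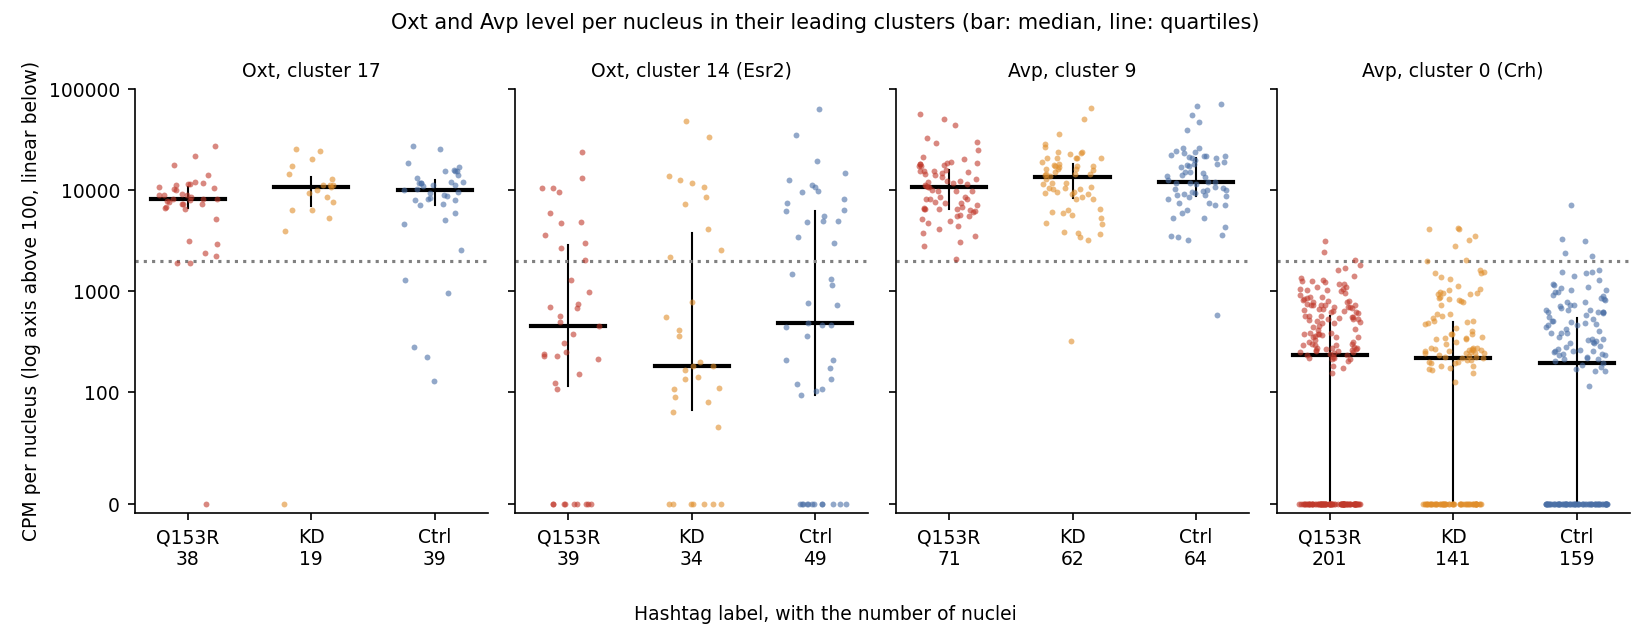
CPM of Oxt or Avp per nucleus (y, log above 100) in the leading clusters by hashtag label, with nuclei as points, the median as a bar and the quartiles as a line. The dotted line is the 2000 CPM threshold, and the points of the 3 labels overlap in every cluster shown.

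A set of 58 genes tied to these neurons was read in the rich nuclei, of which those with at least 20 UMIs over both sets were counted and a ratio of 1.5 or more either way was called. The 136 nuclei rich in Oxt alone were set against 3358 nuclei of Sim1-expressing clusters rich in neither. Of 45 genes counted, 11 were higher and 18 lower, where 21% and 16.6% of all 15275 genes were called. In the 215 nuclei rich in Avp alone, 12 of 45 were higher and 18 lower, where 16.1% and 20.8% of 15270 genes were called. The median log2 ratio of the counted genes was -0.28 in Oxt-rich and -0.32 in Avp-rich nuclei, beside 0.07 and -0.00 over all genes. The higher count in Oxt-rich nuclei lies near the background, and the other counts lie above it. A call did not require an interval that leaves out 1. In Oxt-rich nuclei the intervals of Creb3l1, Gal, Grp and Slc12a1, called lower on 2 to 6 UMIs, included 1. In Avp-rich nuclei so did those of Avpr1a, Creb3l1, Gal and Rgs16, called higher, and of Grp, called lower.

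Receptors came first. Oxtr, the oxytocin receptor, and Avpr1b and Avpr2, vasopressin receptors, had under 20 UMIs and were not counted. Avpr1a, a vasopressin receptor of brain and vessels, had 6 UMIs in Oxt-rich nuclei and 26 in the others, a ratio of 4.56 (1.54–11.3). In Avp-rich nuclei it had 3 UMIs, all in 1 nucleus, a ratio of 1.79 (0.346–5.83).

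Of the 14 processing and granule genes, 2 were higher and 6 lower in Oxt-rich nuclei and 1 was higher and 5 lower in Avp-rich nuclei. Cadps2, a priming factor of dense-core vesicles, stood at 917 CPM in Oxt-rich and 733 CPM in Avp-rich nuclei, against 307 CPM in the other nuclei (ratios 2.98, 2.77–3.21, and 2.39, 2.22–2.57). Cadps, its paralogue, was called in Oxt-rich nuclei with 1.67 (1.57–1.77) and stood at 1.22 (1.15–1.30) in Avp-rich nuclei. Of the granule proteins, 4 were called lower in both sets: Scg2 had ratios of 0.219 and 0.301, Chga 0.445 and 0.348, Chgb 0.565 and 0.453, and Vgf 0.219 and 0.621 in Oxt-rich and Avp-rich nuclei. Scg3, with 0.855 and 0.800, and Scg5, with 0.829 and 0.851, were called in neither set. Pcsk2, a prohormone convertase, was called lower in Oxt-rich nuclei (0.466, 0.419–0.517), and its ratio in Avp-rich nuclei was 0.747 (0.693–0.804). Pam, which amidates peptide ends and so acts on both hormones, stood at 1311 CPM in Oxt-rich and 606 CPM in Avp-rich nuclei, against 1300 CPM in the others, so that it was called lower in Avp-rich nuclei (0.466, 0.432–0.503).

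Among the 10 regulators, 5 were higher and 3 lower in Oxt-rich nuclei and 6 were higher and 3 lower in Avp-rich nuclei. These include Creb3l1, with 2 UMIs in Oxt-rich (0.507, 0.0603–1.89) and 10 in Avp-rich nuclei (1.99, 0.916–3.85). Pou3f2, a POU factor needed for these neurons in mice, stood at 185 CPM in Oxt-rich and 214 CPM in Avp-rich nuclei, against 33.3 CPM in the others. Caprin2, an RNA-binding protein known to act on Avp messenger RNA in rats, stood at 395 and 457 CPM, against 50.8 CPM. Sim1 stood at 954 and 828 CPM, against 493 CPM, and Otp at 130 and 131 CPM, against 85.6 CPM. The Otp ratios of 1.52 and 1.53 were 1.44 and 1.499 without the nucleus with the most Otp UMIs in each set, which ends both calls. Rora, a nuclear receptor, stood at 744 CPM in Oxt-rich and 1309 CPM in Avp-rich nuclei, against 753 CPM, and was called in Avp-rich nuclei (1.74, 1.65–1.83). Esr2 stood at 93.1 CPM in Oxt-rich nuclei, against 9.42 CPM in the others, with 84 UMIs, and had 0 UMIs in Avp-rich nuclei. Nr3c1, the glucocorticoid receptor, had ratios of 0.0962 and 0.226, and Nr3c2, the mineralocorticoid receptor, 0.505 and 0.477.

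Most peptides of other neuroendocrine neurons were lower. Of 12 co-transmitters and markers counted, 2 were higher and 7 lower in Oxt-rich nuclei and 2 were higher and 8 lower in Avp-rich nuclei. Trh had ratios of 0.0882 and 0.0921, Penk 0.277 and 0.108, and Sst 0.364 and 0.142. Crh was at 0.115 in Oxt-rich and 0.574 (0.390–0.817) in Avp-rich nuclei, and at a threshold of 1000 CPM the Avp-rich value was 1.22 (0.941–1.55). Pdyn, which encodes dynorphins, was higher in both, with ratios of 2.78 (1.62–4.51) and 5.28 (3.69–7.42). Nos1, a nitric oxide synthase, stood at 130 CPM in Oxt-rich and 6.08 CPM in Avp-rich nuclei, against 35.9 CPM in the others. Of the release and breakdown genes, Kcnmb4, a subunit of large-conductance potassium channels, was higher in both (2.79, 2.24–3.44, and 5.07, 4.35–5.88). Lnpep, an aminopeptidase that breaks down both hormones, was at 1.33 and 0.938. Several low genes moved with the threshold for a rich nucleus. At 5000 CPM, the ratio in Oxt-rich nuclei was 0.0567 for Penk, 0.224 for Sst and 5.94 for Esr2, and that in Avp-rich nuclei 0.109 for Crh, 0.133 for Nr3c1, 0.175 for Scg2 and 0.242 for Vgf. At 1000 CPM, the ratio in Avp-rich nuclei was 0.394 for Nr3c1 and 0.887 for Vgf, which ends the call of Vgf. With the neighbours of several-tag barcodes kept, Nr3c1 was at 0.214 in Oxt-rich nuclei.

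GABAergic and astrocyte markers were low in the rich nuclei, while oligodendrocyte precursor markers stood higher in Oxt-rich nuclei than in the Sim1-expressing clusters. The 8 GABAergic markers summed to 4.43 CPM in Oxt-rich and 26.1 CPM in Avp-rich nuclei, against 636 CPM in the GABAergic-like cluster. The 8 astrocyte markers summed to 33.3 and 20.8 CPM, against 4596 CPM in glial nuclei. Slc32a1 in Oxt-rich nuclei and Gfap in both sets were at 0. The 5 oligodendrocyte precursor markers summed to 157 CPM in Oxt-rich and 25.2 CPM in Avp-rich nuclei. In Oxt-rich nuclei 156 CPM of this came from 1 gene. Their sum was 30.6 CPM in all Sim1-expressing clusters and 1034 CPM in glial nuclei. The 5 PVH markers summed to 1625 CPM in Oxt-rich and 1586 CPM in Avp-rich nuclei, against 1122 CPM in all Sim1-expressing clusters. The 3 tanycyte markers summed to 98.7 and 43.4 CPM, against 63.3 CPM in those clusters and 45.1 CPM in glial nuclei. Microglia markers (68.7 and 53.0 CPM, against 67.4 CPM) and oligodendrocyte markers (41.0 and 54.7 CPM, against 47.5 CPM) were near the level of those clusters. The 3 neuron markers summed to 2070 and 1040 CPM, against 2359 CPM there.

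**Figure D5:**
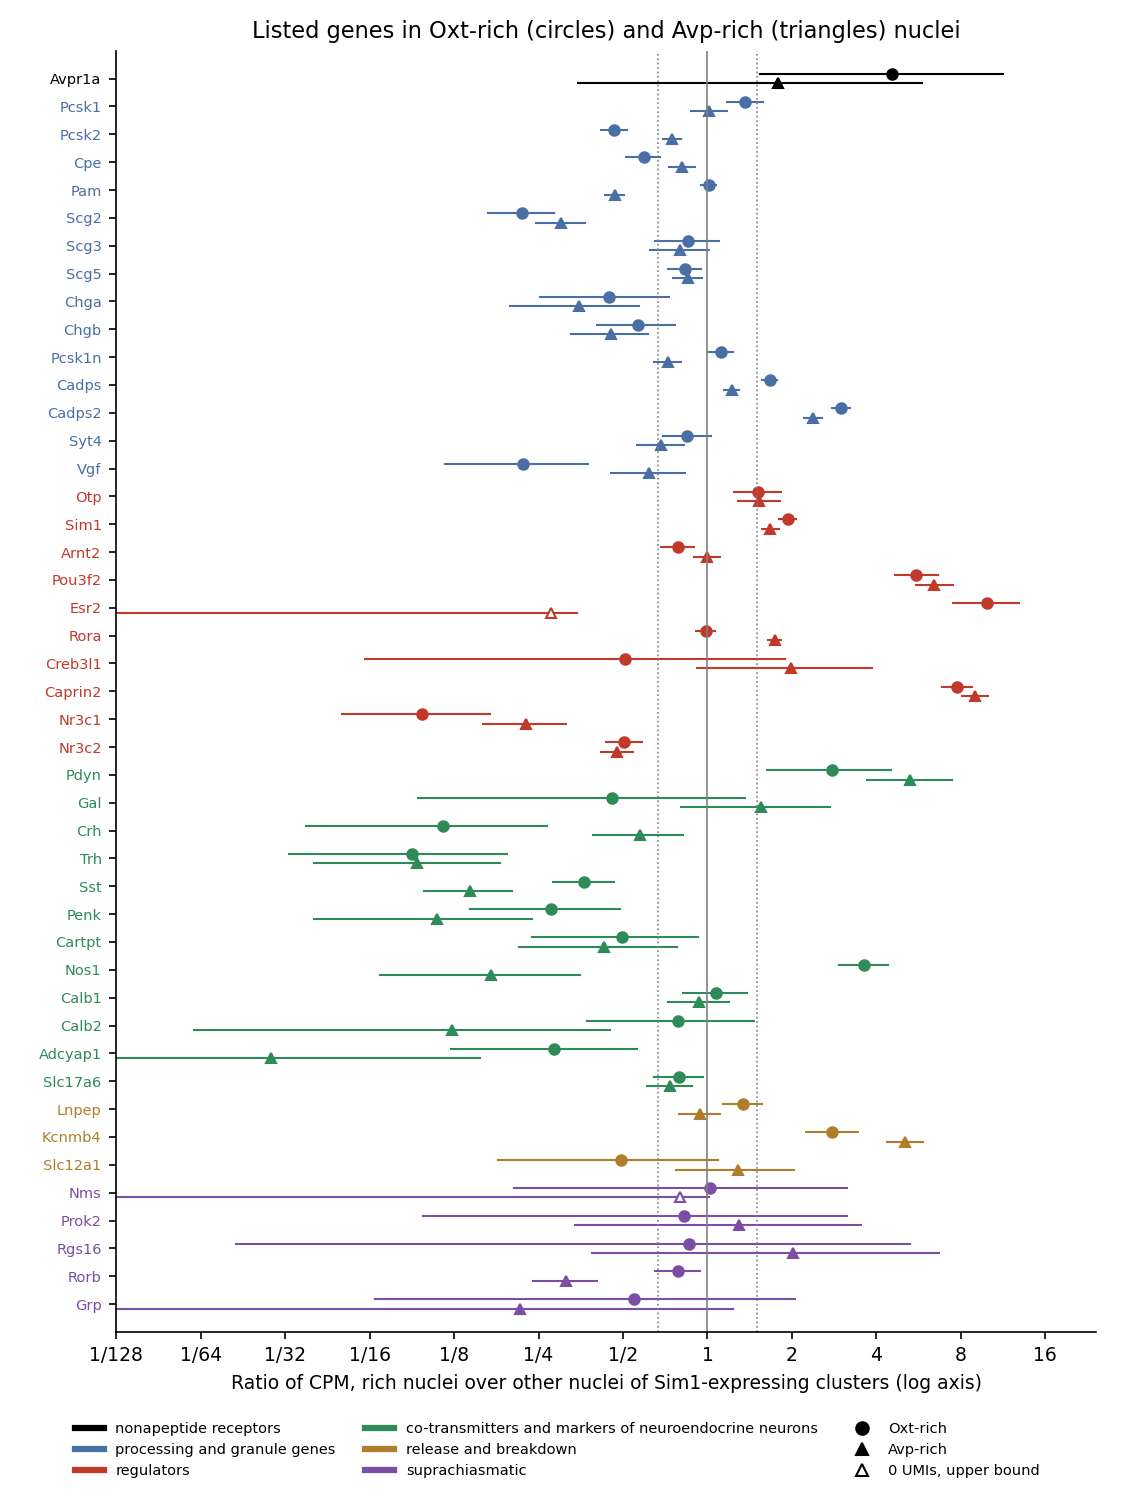
Ratio of CPM (x, log axis) in Oxt-rich nuclei (circles) and Avp-rich nuclei (triangles) over other nuclei of Sim1-expressing clusters for each counted listed gene, coloured by list, with 95% counting intervals and dotted lines at a ratio of 1.5 either way. Caprin2 and Pou3f2 lie right of 1.5 in both sets, Esr2 and Nos1 lie on opposite sides, and Trh and Nr3c1 lie left of 1 in both.

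Oxt-rich nuclei were also set against Avp-rich nuclei, with 34 listed genes counted. Of these, 6 were higher and 8 lower in Oxt-rich nuclei, where 17.3% and 11.5% of 9528 genes were called. The higher count is near the background and the lower one above it. Esr2 was 35.7-fold higher in Oxt-rich nuclei, with the 0 UMIs of Avp-rich nuclei set to a floor of 3 counts over the group. The lower end of its counting interval was 28.4, and it was present in 39 of the 136 Oxt-rich nuclei. Nos1 had 117 UMIs in Oxt-rich and 7 in Avp-rich nuclei (21.3, 10.0–54.2), and Pam a ratio of 2.16 (1.97–2.38). Sst had 66 UMIs in Oxt-rich and 33 in Avp-rich nuclei (2.55, 1.66–4.00), but 24 of the 66 were in 1 nucleus. Also higher were Rorb (2.51, or 4.65 at a threshold of 5000 CPM) and Pcsk1n (1.54). Lower in Oxt-rich nuclei were Crh (0.199), Slc12a1 (0.383), Vgf (0.353), Nr3c1 (0.426), Pdyn (0.527), Kcnmb4 (0.550), Rora (0.568) and Pcsk2 (0.624).

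Beyond the lists, the genes with the largest ratios were ranked after 5 CPM had been added to both sides. Since the sets were picked by their Oxt or Avp, these rankings describe them. In Oxt-rich over other nuclei, the leading genes after Oxt were Foxp2, a forkhead factor, at 2184 CPM against 186 CPM, Fign at 1399 against 135, Oprk1, the kappa opioid receptor, at 177 against 13.7, and Galnt14 at 255 against 21.8. Fam19a1, Adamts12, Stxbp6 and Caprin2 followed, with Gm43122 among them. In Avp-rich over other nuclei they were Plekhg1 at 272 CPM against 12.6 CPM, Pla2r1 at 90.3 against 1.91, Mbnl3 at 95.5 against 4.94 and Nhsl1 at 117 against 8.41. Galntl6 reached 12729 CPM, against 1540 CPM, and was present in 214 of the 215 nuclei, and Caprin2 was the one gene in both lists. Gm47710, Gm32828 and Gm26905 also ranked there.

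Between the peptides, Oxt-rich nuclei led in Galnt14 (230 UMIs, with 1 in Avp-rich nuclei), Sox5, Cntn5, Reln and Prlr, which encodes the prolactin receptor (139 UMIs, with 4). Gm28928, A830018L16Rik and Gm32647 ranked among them. Avp-rich nuclei led in Ebf3, an early B-cell factor (2 UMIs in Oxt-rich and 682 in Avp-rich nuclei), Bcl11a (4 and 238), Mcc (17 and 365), Galnt9, Pla2r1 and Dlk1, an imprinted gene (25 and 307). Gm47710, Gm32828 and Gm26905 ranked among them. The ratios were 10.9 for Cntn5 and Sox5 and 10.5 for Reln with the neighbours of several-tag barcodes kept, against 21.5 for Cntn5, 28.0 for Sox5 and 25.1 for Reln without them. At a threshold of 1000 CPM, Gm32647 was at 7.87, against 22.6 at 2000 CPM. Ebf3 was present in 171 of 215 Avp-rich nuclei and Galnt14 in 75 of 136 Oxt-rich nuclei.

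Over the 25 clusters, the genes most like Oxt in log2(CPM + 5) were Herc4 (Pearson r 0.72), Mrps26 (0.69), Gm43122 (0.65), Eif2ak3 (0.65) and Sertad2 (0.63), among 9909 genes with at least 200 UMIs. Those most like Avp were Mbnl3 (0.71), Ppp1r12b (0.70), Gm32828 (0.66), Sec61a1 (0.61) and Atf6 (0.60). Eif2ak3 and Atf6 encode sensors of the unfolded protein response. Eif2ak3 was highest in cluster 17, at 159 CPM. Atf6 was highest in the oligodendrocyte-like cluster, at 169 CPM, with cluster 9 next at 166 CPM. Sertad2 was also highest in the oligodendrocyte-like cluster, at 169 CPM, with cluster 17 next at 150 CPM. The likeness of Oxt and Avp to each other was 0.19. Clusters share the library and differ in depth, so these are descriptions.

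Mrps26, a mitochondrial ribosomal protein gene, is the next measured gene before Oxt on the plus strand, from 130563742 to 130568695 on chromosome 2 and ending 7478 bases before it. It stood at 78.7 CPM in Oxt-rich nuclei (61.5–99.3, 71 UMIs) and 40.8 CPM in Avp-rich nuclei (30–54.3, 47 UMIs), against 20.2 CPM in the others (18.2–22.4). The ratios were 3.90 (2.98–5.04) and 2.02 (1.46–2.75). Ubox5, the next gene on the side of Avp, had ratios of 1.15 (0.650–1.91) and 1.13 (0.680–1.78), and Ptpra, further before Mrps26, 1.10 and 1.23. The neighbours were looked up after the likeness of Mrps26 had been seen. The antisense gene 4930473A02Rik was at 1.84 (1.22–2.67) and 0.815. It runs on the minus strand from 130563749, so that it overlaps Mrps26 over only a few bases at their 5′ ends.

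Within the rich nuclei, the listed genes were also compared between the pools. In Oxt-rich nuclei, Q153R had 6 higher and 3 lower of 27 listed genes than Ctrl, where 10.9% and 11.7% of 5813 genes were called, and KD had 3 higher and 2 lower of 27, where 10.2% and 17.3% of 5378 were called. In Avp-rich nuclei, Q153R had 3 higher and 3 lower of 28, where 9.57% and 14% of 5798 were called, and KD had 3 higher and 0 lower of 29, where 11.1% and 13% of 6156 were called. The higher count of Q153R in Oxt-rich nuclei lies above the background, and the others lie near or under it. Those 6 genes include Otp, the altered gene, and Esr2, whose interval included 1 (1.56, 0.935–2.61). Both comparisons share the Ctrl nuclei. Otp was called in all 4 comparisons. In Oxt-rich nuclei it stood at 211 CPM in Q153R, 142 CPM in KD and 68.2 CPM in Ctrl (ratios 3.10, 1.94–5.04, and 2.08, 1.20–3.61). In Avp-rich nuclei it stood at 165 CPM in Q153R, 144 CPM in KD and 91.3 CPM in Ctrl (1.81, 1.17–2.81, and 1.58, 1.03–2.45).

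Among the processing genes, Cadps2 was higher in Q153R than Ctrl in Oxt-rich nuclei (1223 against 776 CPM, ratio 1.58, 1.35–1.84) and in Avp-rich nuclei (951 against 550 CPM, 1.73, 1.45–2.06). Pcsk1, the other prohormone convertase, was at 304 CPM in Q153R against 195 CPM in Ctrl in Oxt-rich nuclei (1.56, 1.14–2.15), and Pam at 765 against 476 CPM in Avp-rich nuclei (1.61, 1.33–1.95), or 1.28 with rich nuclei drawn at 1000 CPM, which ends that call. Scg3, a granin, had 5 UMIs in KD and 40 in Ctrl Oxt-rich nuclei (0.243, 0.0747–0.615), and 17 in Q153R (0.624, 0.332–1.13). Sst in Oxt-rich nuclei had 10 UMIs in Q153R, 3 in KD and 53 in Ctrl, of which 24 were in 1 Ctrl nucleus. Without the top nucleus of each pool the Sst ratios were 0.404 (0.160–0.906) for Q153R and 0.135 (0.0156–0.533) for KD. Kcnmb4 was higher in both pools in Oxt-rich nuclei (1.80, 1.09–2.99 in Q153R and 1.94, 1.14–3.30 in KD), and the KD value was 1.65 (0.898–3.02) without the top nucleus of each pool. In Avp-rich nuclei of KD, Cpe, a carboxypeptidase of peptide processing, stood at 1.52 (1.17–1.98) against Ctrl. Its ratio in Q153R was 1.46 (1.11–1.92), just under the cut. Cadps2 and Pam, not called in Avp-rich nuclei of KD, were at 1.35 (1.13–1.61) and 1.28 (1.06–1.55). In Oxt-rich nuclei of KD, Cadps2 was at 1.01 (0.832–1.22) and Pcsk1 at 0.922 (0.609–1.37).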

How the data were processed

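The deposited matrix holds UMI counts per gene and barcode for 1 library, made by the authors with Cell Ranger. The submitters' processing notes name version 6.0.0 and the mm10 build, while the file header names 7.0.0. The gene annotation, the handling of introns and strand, and the cell calling are, in the sources used here, not given. Members and gene lists were chosen with earlier results of these data known.

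A floor of 500 genes and a ceiling of 5% mitochondrial UMIs were set per barcode. Those with several hashtags were taken as doublets, and 583 more with the highest share of such barcodes among their 50 nearest neighbours (22% or more) were removed. Kept nuclei were normalised, logged and clustered on 2000 variable genes without Oxt, Avp and the listed genes, over 30 principal components and 15 neighbours by the Leiden method at resolution 1 (scanpy 1.11.5, Python 3.11.15). Clusters with at least 200 CPM of Sim1 were called Sim1-expressing. The median depth was 5681 UMIs. Poisson, Clopper-Pearson and conditional binomial intervals are exact (scipy 1.17.1), at 95%, and cover counting error only. No p-value was computed, since each label marks 1 pool.

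The genes named are the list members, the 5 most like each gene over the clusters with at least 200 UMIs, and the 10 with the highest or lowest ratio after adding 5 CPM with at least 100 UMIs. Genes with Gm or Rik names are named last, and 1 gene that this rule names is not reported here. The ratios were tested on simulated data. Alternatives covered the thresholds, doublets, hashtag calls, gene minimum, class rule, clustering resolution and background subtraction.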

Additional observations from a re-analysis of the deposited data

How the results depend on the processing

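Of 400 main values under the alternatives, 329 stayed within their counting interval, or within 1.5 times for a count of genes, and 71 moved. None with an interval on 1 side of 1 turned to the other side, while ratios of KD to Ctrl near 1 moved across it. Causes were not tested except where fewer nuclei or UMIs enter by construction. No value moved at resolution 2 or without the top nucleus of each pool.

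With rich nuclei drawn at 1000 CPM, they held 81.9% of Avp UMIs, and 5 listed genes were lower in KD than Ctrl in Oxt-rich nuclei. At 5000 CPM, 2.57% of nuclei were Oxt-rich and 4.11% Avp-rich, holding 69.2% of Oxt and 76.2% of Avp UMIs, and 0.917% of rich several-tag barcodes were rich in both. The Oxt ratio in Oxt-rich nuclei was then 0.855 for Q153R to Ctrl and 0.824 for Q153R to KD, 5 listed genes were higher in KD in Oxt-rich nuclei and 0 lower in Q153R in Avp-rich nuclei. At 20 UMIs, rich nuclei held 72.1% and 78.9% of UMIs, the Oxt ratio for Q153R to Ctrl was 0.829, and 5 listed genes were higher and 0 lower in Q153R in Avp-rich nuclei.

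With doublet neighbours kept, rich nuclei held 72.7% and 78.7% of UMIs. Glia held 431 CPM and 1.48 UMIs per nucleus of Oxt and 165 CPM of Avp, a ratio of 2.61. In Oxt-rich nuclei the Oxt ratios were 0.855 (Q153R to Ctrl), 0.988 (KD to Ctrl) and 0.866 (Q153R to KD), and over Sim1-expressing clusters 0.671 and 0.709 against Ctrl. In Avp-rich nuclei the Avp ratios were 0.803 (Q153R to Ctrl) and 0.795 (Q153R to KD), and over Sim1-expressing clusters 0.941, 1.14 and 0.824 in the order Q153R to Ctrl, KD to Ctrl, Q153R to KD. In the leading clusters they were 1.03 for Oxt (KD to Ctrl), 0.779 for Oxt and 0.815 for Avp (Q153R to KD). Listed genes numbered 4 lower in KD in Oxt-rich and 5 higher in Q153R in Avp-rich nuclei.

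Under stricter hashtag calls, rich nuclei held 76.7% and 82.6% of UMIs, GABAergic-like nuclei 126 CPM of Oxt and glia 172 CPM of Avp. The Oxt ratios in Oxt-rich nuclei were 0.901 (Q153R to Ctrl), 1.10 (KD to Ctrl) and 0.818 (Q153R to KD), and over Sim1-expressing clusters 0.680 (Q153R to Ctrl) and 0.920 (Q153R to KD). The Avp ratios were 0.812 and 0.939 against Ctrl in Avp-rich nuclei and 1.15 (KD to Ctrl) over Sim1-expressing clusters. In the leading clusters they were 1.05 and 0.775 for Oxt (KD to Ctrl, Q153R to KD) and 0.782 and 0.944 for Avp (Q153R and KD to Ctrl), with 1 listed gene lower in Q153R in Avp-rich nuclei.

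With at least 1000 genes, glia held 166 CPM of Avp, the Oxt ratios were 0.965 (KD to Ctrl) and 0.813 (Q153R to KD) in Oxt-rich nuclei and 0.692 and 0.703 against Ctrl over Sim1-expressing clusters, and the Avp ratio in its leading cluster was 1.03 (KD to Ctrl). With classes from markers, GABAergic-like nuclei held 0.788 Avp UMIs and glia 1.08 or 478 CPM, with a glial ratio of 0.683. At resolution 0.5 the ratios over Sim1-expressing clusters were 0.695 for Oxt and 0.849 for Avp (Q153R to Ctrl). Without rich nuclei, GABAergic-like Avp was 118 CPM or 0.592 UMIs per nucleus. With the background taken off, the Oxt ratios over Sim1-expressing clusters were 0.661 and 0.685 against Ctrl, and the Avp ratio 0.698 (Q153R to KD).

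Of 1598 values for single genes and for the other gene in rich nuclei, 97 moved and 1 reversed, Crh in Avp-rich nuclei at 1.22 with the 1000 CPM threshold. The alternatives for pools within rich nuclei, leading clusters and the other gene were chosen after seeing the data. No paired analysis was possible because each pool is 1 sample of 1 library. Intervals for pools leave out variation between mice. Glial values rest on 138 shallow nuclei, and genes under 20 UMIs could not be compared.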
